A study of Mus musculus with 2 samples.

Results

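The genes described here carry glucose into the cell, break it down through glycolysis, and pass pyruvate to lactate or to the mitochondrion. They were listed by name as 32 genes for glucose transporters, glycolytic enzymes, lactate dehydrogenases, lactate transporters, pyruvate dehydrogenase and its kinases, glycogen phosphorylases and glycogen synthase. All 32 were present among the 27999 features of the deposited matrices, and they were read as isoform choices across cell types and between ventricular and atrial cardiomyocytes. The material was whole heart from newborn mice at postnatal day 0 (P0) on a C57BL6+ICR background, dissociated with trypsin, and no treatment or mutant was part of it. A pair of 10x Genomics 3′ version 2 libraries was made as technical replicates of 1 biological sample, so no p-value is given and each value is shown for both replicates. The wider study built a reference map of cardiac cell types from such hearts, and used it to choose transcription factors for lineage conversion.

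Glucose enters cells through Slc2a transporters and is trapped as glucose 6-phosphate by a hexokinase. Glycolysis then splits the sugar and ends in pyruvate, which lactate dehydrogenase interconverts with lactate or pyruvate dehydrogenase commits to oxidation in mitochondria. Most steps have several isoenzymes encoded by separate genes, and striated muscle uses its own set (Pfkm, Pgam2, Eno3, Pygm). The heart before birth relies heavily on carbohydrate and lactate, and moves toward fatty acid oxidation after birth.

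Cell types were assigned from marker genes. Of 11935 barcodes, 8601 had at least 500 genes and under 0.5% of counts from haemoglobin genes, and 7987 of these passed the marker gate of exactly 1 cell type. They comprised 5423 cardiomyocytes, 1171 fibroblasts, 644 vascular endothelial cells, 187 endocardial cells, 191 pericytes, 193 smooth muscle cells, 128 macrophages and 50 epicardial cells. Epicardial cells numbered 16 and 34 in the technical replicates and were left out of the class comparison. Among cardiomyocytes, 3808 were ventricular (Myl2 over 0.8 of Myl2 plus Myl7 counts) and 1391 atrial (under 0.2). Tnnt2, the cardiac troponin T gene, had 7576 CPM (counts scaled to a library of 1000000) in cardiomyocytes. In the other compared classes it had between 231 and 713 CPM. Tnnt2 is 1 of the 12 markers of the cardiomyocyte gate, so this difference follows from the gate and does not test the labels. Deposited totals were 34668956 and 33871582 counts, and 31 kept barcode sequences occurred in both replicates. The CPM total (nuclear counts) leaves out 13 mitochondrial and 10 haemoglobin genes, because the median mitochondrial share was 41.0% in ventricular cells, 21.6% in atrial cells and 3.19% to 5.50% in the classes other than cardiomyocytes. CPM of 3′ counts are not corrected for differences in capture between genes, so isoform shares are compared between cell types and are not molar ratios. Intervals in brackets are exact 95% intervals that cover counting error only.

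Cardiomyocyte RNA was present at a low level in every other class. The summed level of the 12 cardiomyocyte markers in those classes lay between 2.85% and 4.56% of the cardiomyocyte level. A gene whose level in another class is no higher than that of the most carried-over marker there was read as background. That held for 2 of the 32 genes in fibroblasts, 7 in vascular endothelium, 9 in endocardium, 5 in pericytes, 3 in smooth muscle and 8 in macrophages.

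The upstream sequences of 4 genes are shown because the results below turn on them. Pgam2 and Eno3 are the muscle isoforms of phosphoglycerate mutase and enolase, Pgam1 is the mutase that other tissues use, and Slc16a1 encodes the lactate transporter MCT1. Each run covers 250 bases before to 50 bases after the transcription start in RefSeq on GRCm38.p6, 5′ to 3′ on the strand of the gene. Capitals mark the E-box CANNTG, the core of the hypoxia response element (ACGTG, or CACGT on the other strand) and the MEF2 motif of muscle promoters. The windows are chr11:5803747-5804046 on the minus strand for Pgam2, chr19:41911621-41911920 on the plus strand for Pgam1, chr11:70656926-70657225 on the plus strand for Eno3 and chr3:104638414-104638713 on the plus strand for Slc16a1.
Pgam2: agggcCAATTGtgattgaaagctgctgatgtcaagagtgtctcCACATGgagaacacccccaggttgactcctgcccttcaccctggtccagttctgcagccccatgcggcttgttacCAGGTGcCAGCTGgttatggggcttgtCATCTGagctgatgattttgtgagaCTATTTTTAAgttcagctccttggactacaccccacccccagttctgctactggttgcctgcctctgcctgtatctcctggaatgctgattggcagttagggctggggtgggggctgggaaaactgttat
Pgam1: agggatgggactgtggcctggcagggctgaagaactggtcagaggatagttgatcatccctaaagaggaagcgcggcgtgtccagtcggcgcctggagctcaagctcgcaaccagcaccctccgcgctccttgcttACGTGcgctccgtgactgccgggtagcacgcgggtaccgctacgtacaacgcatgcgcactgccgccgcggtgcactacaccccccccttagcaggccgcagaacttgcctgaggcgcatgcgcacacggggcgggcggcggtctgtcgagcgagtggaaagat
Eno3: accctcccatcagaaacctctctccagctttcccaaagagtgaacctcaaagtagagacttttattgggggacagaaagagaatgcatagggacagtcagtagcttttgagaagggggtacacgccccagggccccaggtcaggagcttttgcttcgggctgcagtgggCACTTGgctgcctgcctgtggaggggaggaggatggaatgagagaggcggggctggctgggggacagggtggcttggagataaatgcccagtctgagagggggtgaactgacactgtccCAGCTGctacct
Slc16a1: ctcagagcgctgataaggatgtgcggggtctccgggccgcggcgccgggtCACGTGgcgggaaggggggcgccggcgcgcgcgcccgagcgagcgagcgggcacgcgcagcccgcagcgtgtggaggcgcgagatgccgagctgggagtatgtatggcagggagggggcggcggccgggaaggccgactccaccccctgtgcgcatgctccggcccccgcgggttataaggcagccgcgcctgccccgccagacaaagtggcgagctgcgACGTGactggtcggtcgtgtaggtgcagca
The Pgam2 window holds 5 E-boxes and 1 MEF2 motif, and the Eno3 window holds 2 E-boxes. The Pgam1 window holds no E-box and 1 hypoxia core, and in the Slc16a1 window 2 of the 3 hypoxia core matches overlap each other and an E-box in a single CACGTG. Of the 32 genes, 30 had a RefSeq promoter in the table used. A hypoxia core occurred in 18 of them (60%), against 21.8% of all 27025 genes with a promoter and 30.2% of the genes tested between the chambers. A gene can have several promoters. Counted per promoter, the shares were 47.8% of 46 for the listed genes and 19.6% of 32851 for all genes. For the E-box the shares were 73.3% of the listed genes and 75.0% of all genes, and for the MEF2 motif they were 3.33% and 3.70%, with Pgam2 as the 1 listed gene that has it. These matches are letters in a window and say nothing of binding.

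Cardiomyocytes carried the highest summed level of the 32 genes. The sum was 8730 and 8949 CPM in the technical replicates of cardiomyocytes. It was 4318 and 3921 CPM in macrophages and 3901 and 4191 CPM in pericytes, the next classes. Endocardium was the lowest compared class with 1628 and 1606 CPM. Of the 32 genes, 24 were highest in cardiomyocytes, 20 of them in both replicates. The total leaves out mitochondrial counts, whose median share was 36.7% in cardiomyocytes and 3.19% to 5.50% in the other compared classes. This raises cardiomyocyte CPM relative to those classes. Some leads over the next class were small, such as 1.00 times for Pfkl, 1.03 for Ldha and 1.42 for Aldoa. These values and the calls below are not given with all counts as the total. A gene was called higher in cardiomyocytes when each replicate held 20 or more of its counts in cardiomyocytes and its CPM was 2 or more times that of every other compared class, again in each replicate. Of 29 genes with enough counts, 12 were called, and the same rule called 8.27% of all 11245 features. None of the 32 was called lower in cardiomyocytes than in every other class, where the rule called 3.27% of 11805 features. No other class led any of the genes by this rule, but few genes had enough counts in the smaller classes. Enough counts were held by 25 genes in fibroblasts, 22 in vascular endothelium and 13 in endocardium. The numbers were 11 in pericytes, 13 in smooth muscle and 8 in macrophages. Genes below that depth could not be called there, and shares over all features are not given for those classes.

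**Figure D1:**
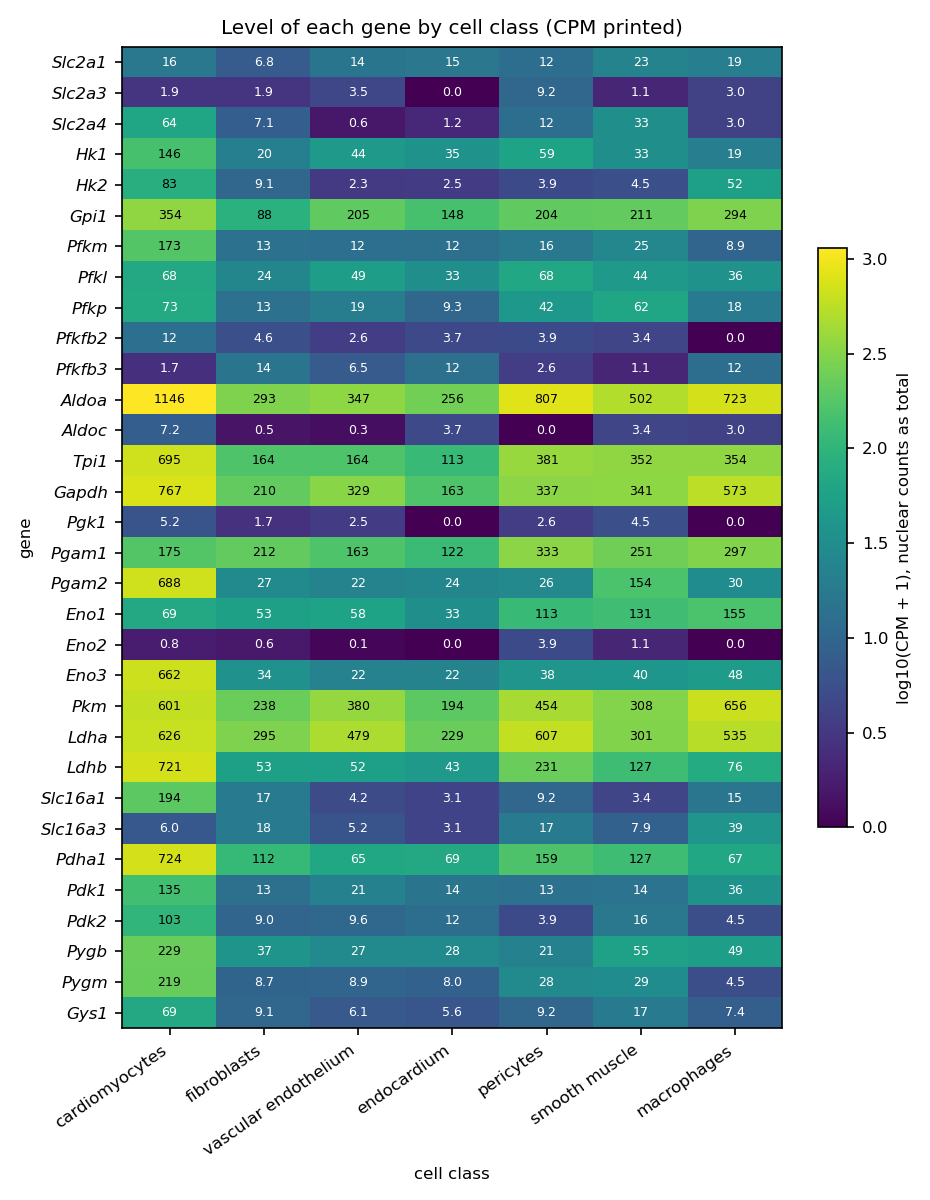
Level of each of the 32 genes (rows, in the order of the pathway) in the 7 compared cell classes (columns, cardiomyocytes leftmost). Printed numbers are CPM over both technical replicates together and the colour is log10(CPM + 1). Muscle isoforms such as Pgam2 and Eno3 stand out in the cardiomyocyte column, at 688 and 662 CPM.

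At the entry step, Slc2a4, the insulin-responsive transporter GLUT4 of muscle and fat, had 64.3 and 63.1 CPM in cardiomyocytes. Smooth muscle was next with 23.3 and 41.9 CPM, so that Slc2a4 missed the fold rule in one replicate. Vascular endothelium and endocardium held it at background, with 0.554 to 1.32 CPM. Slc2a1, the widely used transporter GLUT1, had 14.3 and 17.9 CPM in cardiomyocytes and between 6.23 and 24.3 CPM across the replicates of the other classes, so the classes overlapped. Within the transporter family, Slc2a4 made up 78.1% [76.2 to 80.0] of counts in cardiomyocytes and 3.15% [0.865 to 7.87] in vascular endothelium, where Slc2a1 made up 78.0%. Slc2a3, the high-affinity transporter of neurons, gave 42 counts in cardiomyocytes and, over both replicates together, was the leading transporter in no class. In pericytes, with 25 transporter counts, it made up 16.7% and 38.5% in the replicates. The second value exceeded the 30.8% of each other transporter there.

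Hk1, the housekeeping hexokinase, had 147 and 146 CPM in cardiomyocytes, against 59.9 and 57.8 CPM in pericytes, the next class. Hk2, the isoform that insulin induces in muscle, had 83.9 and 82.0 CPM in cardiomyocytes, against 65.9 and 35.7 CPM in macrophages. In the remaining classes Hk2 lay between 0 and 12.0 CPM and was at background in 4 of them. Macrophages were the 1 class in which Hk2 led its family, with 72.9% [58.2 to 84.7] of hexokinase counts and 72.7% and 73.3% in the replicates. The share was 36.2% [34.9 to 37.5] in cardiomyocytes, and lowest in vascular endothelium at 5.00% [2.88 to 7.99]. The macrophage share rests on 48 hexokinase counts.

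The phosphofructokinase step separated cardiomyocytes from the other compared classes. In epicardial cells, which were not compared, Pfkm made up 39.3% [21.5 to 59.4] of 28 counts. Pfkm, the muscle subunit, had 172 and 173 CPM in cardiomyocytes and at most 28.7 CPM in any replicate of another class. It made up 55.0% [53.8 to 56.2] of phosphofructokinase counts in cardiomyocytes, with 55.2% and 54.8% in the replicates, against 12.5% [6.63 to 20.8] in pericytes, the lowest class. Pfkl, the liver subunit, led in fibroblasts, both endothelia, pericytes and macrophages, and reached 61.2% in vascular endothelium against 21.8% in cardiomyocytes. Pfkp, the platelet subunit, led in smooth muscle with 55.9% and 38.6% in the replicates, the second of which equals the share of Pfkl there. The enzymes that make the phosphofructokinase activator fructose 2,6-bisphosphate followed a similar division. Pfkfb2, the cardiac form, made up 87.7% [83.6 to 91.2] of Pfkfb counts in cardiomyocytes. Pfkfb3, the form known for driving glycolysis in endothelium and proliferating cells, made up 75.2% in fibroblasts, 71.4% in vascular endothelium and 76.9% in endocardium. Counts were few: 310 in cardiomyocytes, between 26 and 121 in those 3 classes, and at most 8 in pericytes, smooth muscle and macrophages, whose shares are not compared.

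In the middle of the pathway several genes were shared widely. Aldoa, the main aldolase, had 1145 and 1146 CPM in cardiomyocytes, against 790 and 831 CPM in pericytes and 769 and 669 CPM in macrophages. It made up at least 98.6% of aldolase counts in every compared class, and Aldoc had 162 counts in cardiomyocytes. Tpi1 (triosephosphate isomerase), Gapdh, Gpi1 (glucose phosphate isomerase) and Pkm (pyruvate kinase) were all missed by the fold rule. Pkm had 602 and 600.3 CPM in cardiomyocytes, against 667 and 643 CPM in macrophages. Of the last 400 transcript bases of Gapdh and Eno1, 73.3% and 68.8% of 90-base windows occur in other annotated genes, so their counts are uncertain. Pgk1, phosphoglycerate kinase, had 5.35 and 5.09 CPM in cardiomyocytes. Over both replicates together no compared class had more than 5.23 CPM. Capture is not corrected between genes, so this is not read as near absence of the transcript, and the cause of the low value was not tested.

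Phosphoglycerate mutase also divided muscle from other cells. Pgam2 had 678 and 699 CPM in cardiomyocytes, against 151 and 157 CPM in smooth muscle. Every other compared class had between 21.9 and 38.9 CPM, which is at background. Pgam1 was not higher in cardiomyocytes: it had 176 and 174 CPM there, against 350 and 310.5 CPM in pericytes and 299 and 295 CPM in macrophages. Pgam2 therefore made up 79.7% [79.1 to 80.3] of the family in cardiomyocytes, 38.0% [32.9 to 43.2] in smooth muscle and 7.30% [4.52 to 11.05] in pericytes. In single cells thinned to 2000 counts, a Pgam2 count was seen in 76.1% of atrial and 59.4% of ventricular cardiomyocytes, against 4.32% of fibroblasts and 19.3% of smooth muscle cells. The median depths of the 4 groups before thinning were 4361, 3674, 5272 and 4362 counts.

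Enolase behaved likewise. Eno3, the muscle enolase, had 651 and 675 CPM in cardiomyocytes and at most 57.6 CPM in any replicate of another class. It made up 90.5% [90.02 to 90.9] of enolase counts in cardiomyocytes and between 23.0% and 40.4% elsewhere. These shares carry the uncertainty of Eno1, of whose 90-base windows 68.8% occur in other annotated genes, against 0% for Eno3. The effect on the shares was not tested, and the intervals do not cover it. In vascular endothelium, endocardium and smooth muscle Eno3 itself was at background. Eno1, the general enolase, had 69.7 and 68.1 CPM in cardiomyocytes, against 165 and 143 CPM in macrophages and 88.5 and 172 CPM in smooth muscle, whose values overlapped. Eno2, the neuronal enolase, had 17 counts in cardiomyocytes.

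At the lactate step, Ldhb, the heart subunit of lactate dehydrogenase, had 712 and 730 CPM in cardiomyocytes. Pericytes were next with 214 and 253 CPM. Ldha, the muscle subunit, had 620 and 632 CPM in cardiomyocytes, which overlapped the 559.5 and 670 CPM of pericytes. The share of Ldhb was 53.5% [53.0 to 54.1] in cardiomyocytes, with 53.4% and 53.6% in the replicates, against 29.6% in smooth muscle, 27.5% in pericytes and 9.87% [8.92 to 10.9] in vascular endothelium, the lowest class. Slc16a1 had 194 and 195 CPM in cardiomyocytes and at most 17.4 CPM in any replicate of the other compared classes. Slc16a3, encoding the transporter MCT4 that exports lactate from glycolytic cells, went the other way, with 6.52 and 5.37 CPM in cardiomyocytes and 41.2 and 35.7 CPM in macrophages. Slc16a1 made up 97.0% [96.5 to 97.5] of lactate transporter counts in cardiomyocytes and 27.8% [14.2 to 45.2] in macrophages.

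Genes that hand pyruvate and glycogen on were all led by cardiomyocytes. Pdha1, the catalytic alpha subunit of pyruvate dehydrogenase, had 715 and 735 CPM, against 179.6 and 131 CPM in pericytes. Its kinases Pdk1 (131 and 139.5 CPM) and Pdk2 (105 and 100.1 CPM), which switch the enzyme off, had at most 38.9 and 19.8 CPM in any replicate of another class. Pdk2 made up 43.2% of the kinase pair in cardiomyocytes, 53.8% [33.4 to 73.4] in smooth muscle and 11.1% [2.35 to 29.2] in macrophages. Pygm and Pygb, the muscle and brain forms of glycogen phosphorylase, had 219 and 219.7 CPM and 228 and 229 CPM in cardiomyocytes, against at most 30.3 and 59.5 CPM elsewhere. Pygm made up 49.0% of the pair in cardiomyocytes, 56.8% [39.5 to 72.9] in pericytes and 8.33% [1.75 to 22.5] in macrophages. Gys1, muscle glycogen synthase, had 63.9 and 73.8 CPM in cardiomyocytes, against 13.97 and 19.8 CPM in smooth muscle.

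Across the 11 families, the leading isoform of cardiomyocytes led in none of the other 6 compared classes with at least 20 family counts in 6: phosphofructokinase, Pfkfb, phosphoglycerate mutase, enolase, lactate dehydrogenase and the lactate transporters. Epicardial cells were not among the compared classes. Ldhb led there with 55.6% [46.8 to 64.1] of 135 counts, and Slc16a1 with 81.0% [73.6 to 87.1] of 142. Including epicardial cells would therefore take lactate dehydrogenase and the lactate transporters out of the 6. For the lactate transporters, Slc16a1 made up 48.4% [41.7 to 55.2] in fibroblasts and 44.6% [32.3 to 57.5] in vascular endothelium. Its interval overlapped that of Slc16a3 in both classes and in pericytes, which held 20 counts of the family. In macrophages the intervals were separate. Endocardium and smooth muscle held 10 counts each and were not compared. Pfkfb was compared in fibroblasts, vascular endothelium and endocardium alone. The plot of isoform shares gives 6 isoforms in each technical replicate.

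**Figure D2:**
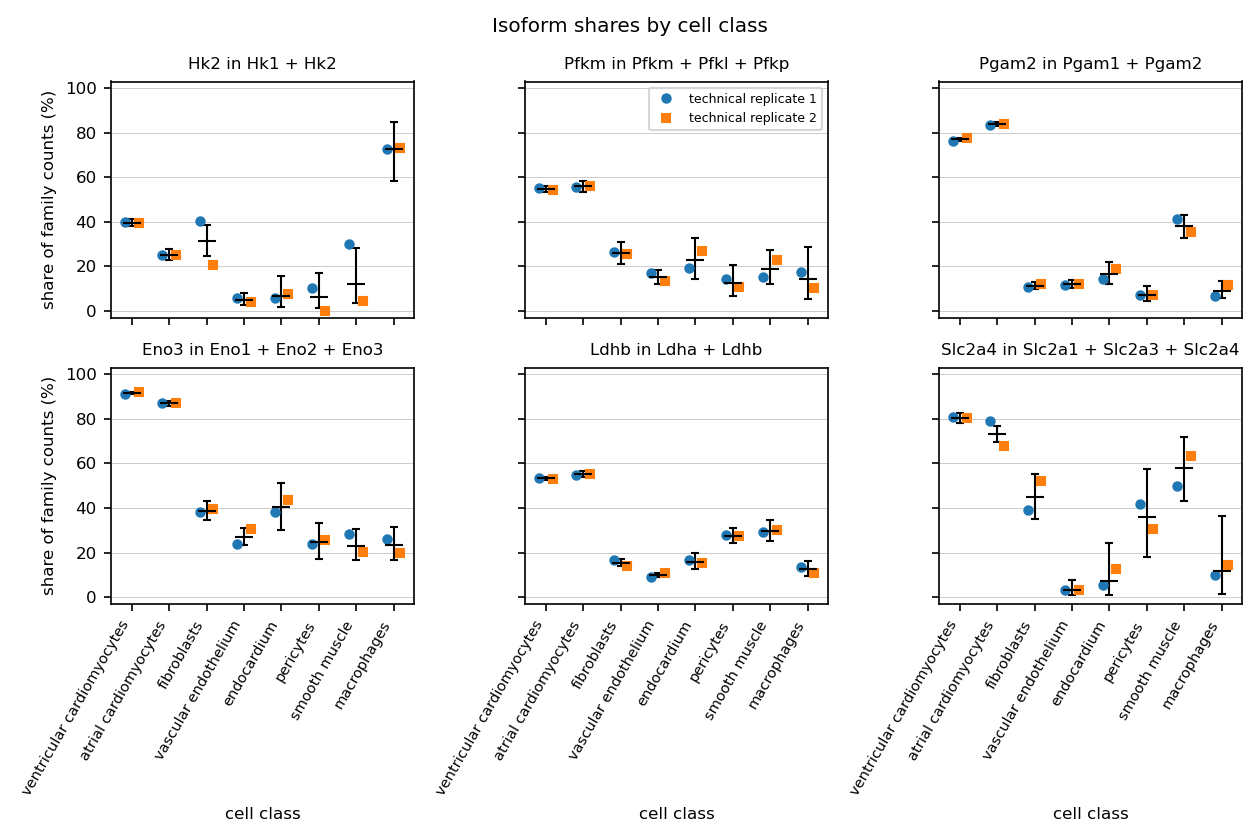
Share of 1 isoform in the summed counts of its family (vertical axis, %) in ventricular and atrial cardiomyocytes and the 6 other compared classes. Circles and squares are technical replicates 1 and 2, the dash is the pooled share and the bar its exact 95% interval. Both kinds of cardiomyocyte lie above every other class for Pfkm, Pgam2, Eno3, Ldhb and Slc2a4, and macrophages lie highest for Hk2.

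Genes of neighbouring pathways were read by the same rule, which called 8.27% of all features higher and 3.27% lower. Of 10 other genes for pyruvate entry and oxidation, 7 were called higher in cardiomyocytes, and Pdk4, the kinase that fasting induces, had the largest ratio, 23.4 times the next class (102 and 107 CPM in cardiomyocytes). Pdhb, Dlat, Dld and Pdhx, which encode the other subunits of the pyruvate dehydrogenase complex, were each between 2.68 and 5.72 times the next class. Of 13 other glycogen genes, 5 were called higher in cardiomyocytes, among them Gyg (glycogenin, 5.42 times) and Pgm1 (phosphoglucomutase, 4.51 times). Pgm2 was called lower. None of the 6 pentose phosphate genes was called higher, and Tkt, transketolase, was called lower, with 13.2 and 12.7 CPM in cardiomyocytes. Of 12 hypoxia and glucose sensing genes, 1, the mitophagy gene Bnip3, was called higher, a share near that of all features. Of 14 further isoforms of these enzymes and transporters, such as Hk3, 5 had enough counts in cardiomyocytes and 0 were called in either direction.

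Between the chambers, 8 of the genes were called higher in ventricular cardiomyocytes, which pump against the greater load, than in atrial cardiomyocytes, a number that depended on the total used for scaling. A gene was called when its CPM differed by at least 1.5 times in both technical replicates and it had at least 20 counts in each replicate over both kinds of cell. Of 29 genes with enough counts, 8 were called higher in ventricular cells, where the rule called 7.57% of 11205 features, and 1 was called lower, where it called 9.92%. Ratios were above 1 in both replicates for 24 of the 29 and below 1 in both for 3, against 35.3% and 41.5% of all features tested. The median log2 ratio was 0.40 for the 29 genes and -0.03 for all features tested.

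Slc16a1 had the largest ventricular excess. It had 244 and 250.1 CPM in ventricular cells, against 76.0 and 69.3 CPM in atrial cells, a ratio of 3.39 [3.08 to 3.74]. The other lactate transporter, Slc16a3, had 7.05 and 6.92 CPM in ventricular cells and 4.68 and 2.20 CPM in atrial cells (ratio 2.00 [1.27 to 3.29]), from 23 atrial counts. Hk2 had 98.4 and 97.0 CPM in ventricular cells, against 49.1 and 45.7 CPM in atrial cells (ratio 2.06 [1.82 to 2.33]). Hk1 did not pass, with a ratio of 1.05 [0.976 to 1.14], so that the Hk2 share of hexokinase counts was 39.6% [38.1 to 41.2] in ventricular and 25.1% [22.8 to 27.6] in atrial cells. Pfkl had 73.4 and 82.4 CPM in ventricular cells and 44.4 and 49.8 CPM in atrial cells (ratio 1.65). Aldoc, the aldolase known from brain, had 6.93 and 9.82 CPM in ventricular cells and 2.63 and 5.35 CPM in atrial cells (ratio 2.1005 [1.37 to 3.34]).

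Further down, Eno3 had 744 and 784 CPM in ventricular cells, against 439 and 437 CPM in atrial cells (ratio 1.74 [1.67 to 1.81]). Ldha had 696 and 713 CPM in ventricular cells, against 431 and 452 CPM in atrial cells (ratio 1.60 [1.53 to 1.66]). Ldhb was close behind at 1.48 [1.42 to 1.53] and missed the rule in one replicate, so the Ldhb share was nearly level, at 53.2% in ventricular and 55.2% in atrial cells. Pdha1 had 806 and 824 CPM in ventricular cells, against 496 and 529 CPM in atrial cells (ratio 1.59 [1.53 to 1.65]).

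Pgam2 was the 1 gene called lower in ventricular cells. It had 551 and 570.5 CPM there, against 995 and 1014 CPM in atrial cells, a ratio of 0.558 [0.540 to 0.576]. Pgam1 had a ratio of 0.867 [0.810 to 0.928]. The Pgam2 share was 77.0% [76.2 to 77.8] in ventricular and 83.9% [83.1 to 84.7] in atrial cells. At least 5 counts of the pair were held by 826 of 3808 ventricular and 680 of 1391 atrial cells. The median share of Pgam2 in those cells was 83.3% and 88.9%. Pgam2 gives most counts of the pair, so this filter selects for Pgam2 and the medians are no independent support. Neighbouring steps of glycolysis thus ran in opposite directions between the chambers, Pgam2 lower and Eno3 higher in ventricular cells. Slc2a1 was also lower in ventricular cells in both replicates, at 13.1 and 13.8 CPM against 17.0 and 26.1 CPM, but one replicate missed the rule. Slc2a4 (ratio 0.990 [0.882 to 1.11]) and Gpi1 (0.975 [0.929 to 1.02]) had intervals that held 1. With all counts, mitochondrial ones included, as the total, log2 ratios over all features shifted by -0.37, and 2 genes were called higher and 2 lower. Without technical replicate 1, 3 genes were called lower, and without replicate 2, 1 gene. The shares over all features are not given for that total or for single replicates, so these counts are not set against a background.

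**Figure D3:**
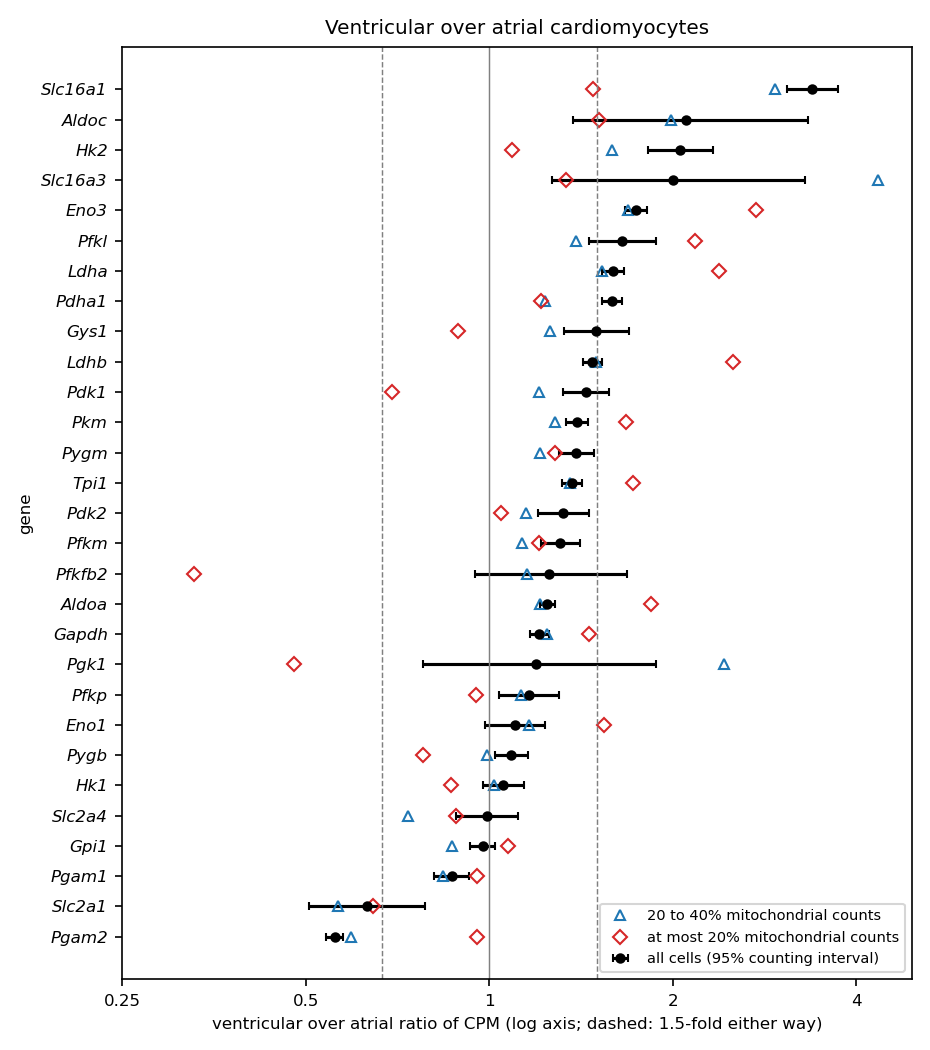
Ventricular over atrial ratio of CPM (horizontal log axis) for the 29 genes with enough counts, with 95% counting intervals (black), and the same ratio among cells at 20 to 40% (triangles) and at most 20% mitochondrial counts (diamonds). Dashed lines mark 1.5-fold either way. Slc16a1 lies highest at 3.39 and Pgam2 lowest at 0.558, and the diamond of Pgam2 lies at 0.953.

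Mitochondrial share moved with these ratios. With cells of both chambers at 20 to 40% mitochondrial counts (1352 ventricular and 725 atrial cells), 5 genes were called higher in ventricular cells (background 6.35%) and 2 lower (background 10.2%). Slc16a1 kept a ratio of 2.95, Eno3 of 1.69 and Pgam2 of 0.594, while Hk2 at 1.59 and Ldha at 1.53 missed the rule in one replicate each and Pdha1 stood at 1.23. In cells at or under 20%, 7 genes were called higher in 413 ventricular than in 582 atrial cells (background 6.28%) and 1, Slc2a1, lower (background 22.5%). Those ventricular cells had a median mitochondrial share of 4.72%, against 15.3% in the atrial cells. There Ldhb had a ratio of 2.51, Ldha of 2.38 and Eno3 of 2.74, whereas Slc16a1 had 1.48, Hk2 1.09 and Pgam2 0.953. Eno3 was the 1 gene called higher in all 3 settings, and no gene was called lower in all 3. The part of the mitochondrial share in these ratios was not tested.

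The bands of mitochondrial share show this within each chamber. Pgam2 had 998 and 1160 CPM in ventricular cells under 20%, 494 and 520 CPM from 20 to 40%, and 470 and 451 CPM from 40 to 60%. Atrial cells in the same bands had 1082 and 1170, 869 and 835, and 1489 and 1448 CPM, the last from 66 cells. Ldhb in ventricular cells had 1516 and 1557 CPM under 20% and 680.5 and 716 CPM from 20 to 40%. Slc16a1 ran the other way and had 102 and 82.6 CPM in ventricular cells under 20%, and 291 and 290 CPM from 40 to 60%. In the 243 ventricular cells at 60% or more, Pgam2 had 619 and 709 CPM, Ldhb 963 and 1080 CPM and Slc16a1 361 and 438 CPM, so Pgam2 and Ldhb were lower in the middle bands than at either end.

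**Figure D4:**
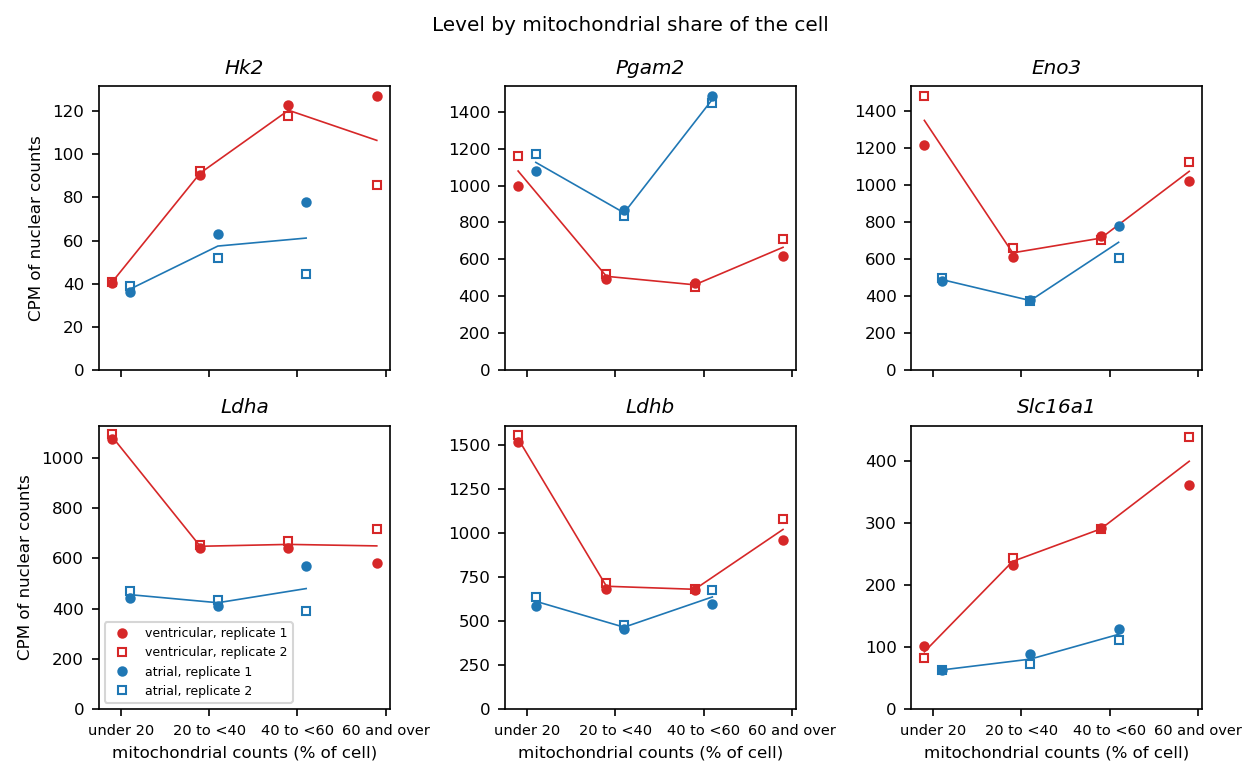
Level (CPM) of 6 genes in ventricular (red) and atrial (blue) cardiomyocytes by band of mitochondrial share, for bands with at least 50 cells. Filled circles are technical replicate 1, open squares replicate 2, and lines join their means. Ventricular Ldhb is at 1516 and 1557 CPM under 20%, at 680.5 and 716 CPM in the next band and at 963 and 1080 CPM in the highest, while ventricular Slc16a1 is lowest under 20%.

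Neighbouring pathways were compared between the chambers too, where the rule called 7.57% of all features higher in ventricular cells and 9.92% lower. Of the 10 pyruvate entry genes, Pdp1 (ratio 2.77), Pdk4 (2.48), Mpc2 (1.77), Dld (1.65) and Pdhb (1.64) were called higher in ventricular cells. Pdp1 encodes the phosphatase that switches pyruvate dehydrogenase on, and Mpc2 a subunit of the mitochondrial pyruvate carrier. Of the 12 hypoxia and glucose sensing genes, Mlxipl (ratio 7.41 [4.05 to 15.1]), Txnip (3.07), Egln3 (2.14) and Epas1 (2.099) were called higher and none lower. Mlxipl encodes the glucose-sensing factor ChREBP, and Txnip restrains glucose uptake. Among the 13 glycogen genes, Phkg1, the catalytic subunit of muscle phosphorylase kinase, was lower in ventricular cells, with 7.17 and 8.58 CPM against 54.4 and 56.4 CPM in atrial cells (ratio 0.141 [0.114 to 0.174]). Gaa, acid glucosidase, was lower (0.613), and Pygl (2.35) and Stbd1 (2.30) were higher. Thus 2 of 13 were called in each direction, too few to set against the 7.57% and 9.92% of all features.

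Cycling cells were set against resting cells of the same kind. A cell was called cycling with at least 5 counts over 10 cell cycle genes and resting with at most 1. These limits are on raw counts, so deeper cells pass the cycling limit more easily. In ventricular cardiomyocytes, 332 cycling and 3318 resting cells had median nuclear counts of 5014 and 3539. Cycling cells showed less Aldoa, Pgam2, Eno3 and Pygm: 6 of the genes with enough counts were called lower, where the rule called 6.05% of 10442 features, and 2 were called higher, where it called 11.1%. Ratios were below 1 in both replicates for 24 genes and above 1 in both for 3, against 31.8% and 40.6% of all features tested. The median log2 ratio was -0.32, against 0.06 for all features tested (0.19 with all counts as the total). Without technical replicate 1, 7 genes were called lower, and without replicate 2, 11 genes, and the shares over all features are not given for single replicates.

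Aldoa had 713 and 678 CPM in cycling ventricular cells, against 1300 and 1311 CPM in resting ones (ratio 0.534 [0.504 to 0.565]). Pgam2 had 362 and 336 CPM in cycling cells, against 578 and 607 CPM in resting cells (ratio 0.591 [0.544 to 0.641]). Eno3 had 498 and 474 CPM in cycling cells, against 782 and 830 CPM in resting cells (ratio 0.605 [0.564 to 0.648]). Each pair of cycling values lay below both resting values. Pygm (ratio 0.497 [0.434 to 0.568]), Pfkl (0.511 [0.401 to 0.644]) and Pfkfb2 (0.476 [0.241 to 0.852], from 12 counts in cycling cells) were also called lower. Pfkp had 113 and 107 CPM in cycling cells, against 70.8 and 66.9 CPM in resting cells (ratio 1.60 [1.36 to 1.86]), and Slc16a3 had 12.4 and 11.6 CPM against 6.27 and 6.49 CPM (ratio 1.88 [1.12 to 3.05]). Pgam1 missed the rule at 1.48 [1.33 to 1.64].

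Isoform shares moved with these levels. The Pgam2 share was 60.1% [57.1 to 63.0] in cycling and 79.0% [78.2 to 79.8] in resting ventricular cells, the Pfkp share was 36.0% [32.0 to 40.1] and 20.05% [18.9 to 21.3], and the Pfkl share was 13.9% and 24.2%. Hexokinase and lactate dehydrogenase shares overlapped: Hk2 made up 38.8% [33.9 to 44.0] in cycling and 40.1% [38.4 to 41.8] in resting cells, and Ldhb 53.7% and 53.0%. Cardiomyocyte marker RNA was lower in the cycling cells too, with summed levels of 41819 and 39702 CPM in cycling cells, against 60896 and 60393 CPM in resting cells, and 3 of the 12 markers called lower. The part of that difference in the result was not tested.

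In atrial cardiomyocytes the 89 cycling and 1249 resting cells, with median nuclear counts of 6565 and 4210, were compared in the same way. Aldoa, Pgam2, Eno3, Pdk2 and Pygm were called lower, where the rule called 7.71% of features, and 0 genes were called higher (background 9.56%). Summed cardiomyocyte markers were lower here as well, at 38440 and 41357 CPM in cycling and 57944 and 57738 CPM in resting atrial cells, with 2 of the 12 called lower, and their part in the result was not tested. The Pgam2 ratio was 0.543 [0.487 to 0.603], and the Pgam2 share was 67.8% [63.7 to 71.7] in cycling and 85.3% [84.4 to 86.1] in resting atrial cells. In fibroblasts, 218 cycling and 859 resting cells had median nuclear counts of 7001 and 5001. There Pfkfb3, Aldoa and Pygm were called lower (background 6.25%) and 0 higher (background 7.33%). In vascular endothelium (274 and 296 cells), Aldoa and Pygm were called lower (background 3.19%) and 0 higher (background 5.58%). Aldoa was therefore called lower in all 4 kinds of cell. Its level in cycling cells was 133 and 169 CPM in fibroblasts and 259 and 291 CPM in endothelium, against 322 and 365 CPM in resting fibroblasts and 458 and 481 CPM in resting endothelium. Pygm was at background in both of those classes, with 5 counts in cycling fibroblasts, and the part of carried-over cardiomyocyte RNA in its ratio was not tested. Cycling endothelial cells held 13100.5 nuclear counts at the median, against 4942 in resting ones.

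**Figure D5:**
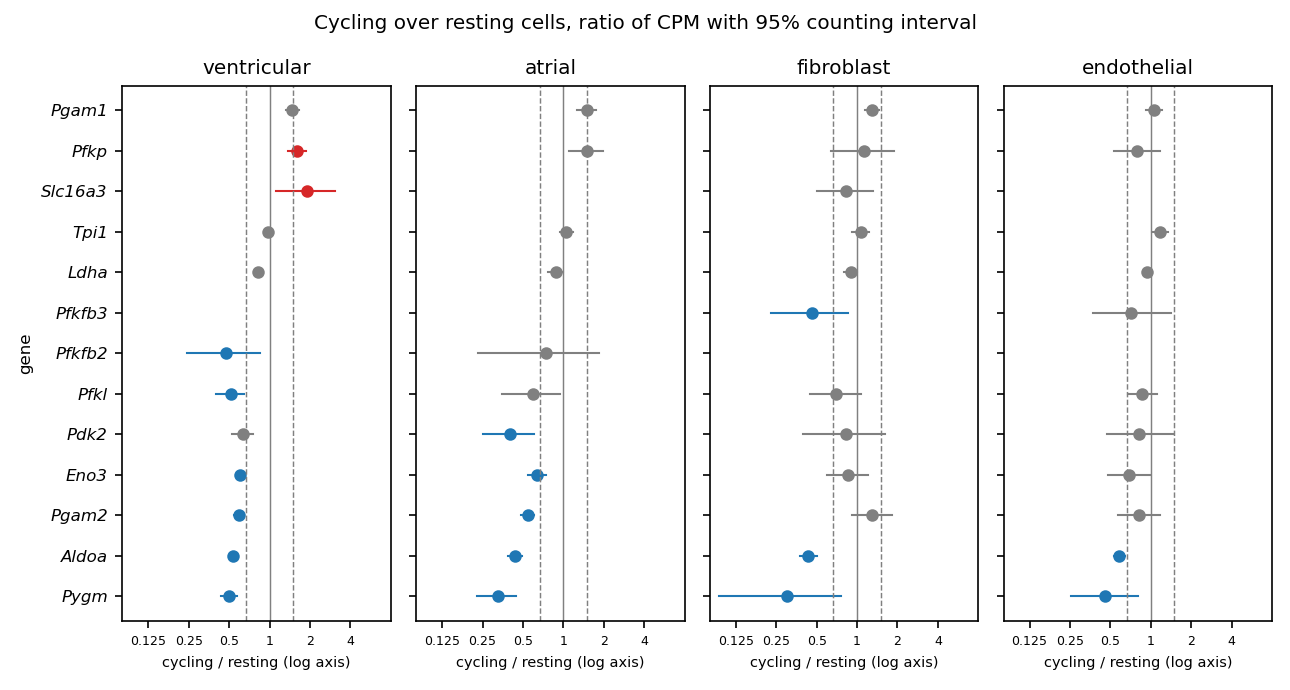
Cycling over resting ratio of CPM (horizontal log axis) for 13 genes in 4 kinds of cell, with 95% counting intervals. Blue points were called lower, red points higher, and grey points neither, and genes with too few counts in a panel are left out. Aldoa and Pygm are blue in every panel, at 0.534, 0.434, 0.434 and 0.584 for Aldoa from left to right.

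Cardiomyocytes were divided further by Nppa and Bmp10. Ventricular cells in the top 25% for Nppa, a natriuretic peptide gene of the trabecular and stressed ventricle, numbered 953 and were set against 1818 cells with 0 Nppa counts. None of the 32 genes was called in either direction, where the rule called 0.74% of features higher and 0.535% lower. Among atrial cells, 520 with at least 2 counts of Bmp10, a growth factor gene of the right atrium, were set against 797 with 0 counts. Hexokinases were the genes called lower: Hk1 had 108 and 83.0 CPM in Bmp10-positive cells, against 173 and 179 CPM in Bmp10-negative cells (ratio 0.541 [0.464 to 0.628]). Hk2 had 24.5 and 24.8 CPM in Bmp10-positive cells, against 62.7 and 61.7 CPM in Bmp10-negative cells (ratio 0.396 [0.294 to 0.526]). The rule called 3.35% of features lower and 2.83% higher, and 0 of the 32 genes were called higher. Of 26 genes with enough counts, 19 had ratios below 1 in both replicates, as had 29.6% of all features, and the median log2 ratio was -0.29, against 0.01 for all features tested. Summed cardiomyocyte markers were 48685 and 52156 CPM in Bmp10-positive and 58980 and 59163 CPM in Bmp10-negative cells, with 0 of the 12 markers called.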

How the data were processed

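The authors deposited a matrix of raw counts per gene and barcode for each of 2 technical replicates, made with Cell Ranger 2.1.0 on mm10, per the submitters' processing notes. Whether a count is a molecule or a read is not given in the sources used here. Both samples carry the same internal identifier, while the columns of the second matrix carry another prefix, so files were assigned to samples as deposited. Symbols were found for 27645 of 27999 features. Barcodes with at least 500 genes and under 0.5% haemoglobin counts were kept, which removed 3148 barcodes for haemoglobin. Cells passing several marker gates (441) were dropped in place of a doublet caller, and no caller was run. CPM, shares, ratios and exact intervals were computed with Python 3.11.15, numpy 2.4.6, scipy 1.17.1 and pandas 2.3.3, and the steps were tested on simulated data. There is 1 biological sample, so calls are fold rules met in both technical replicates, and no p-value is given. The kept cells held between 1851 and 76750 counts. Per-replicate values are given for isoforms in the classes with their highest and lowest share and for genes past a fold rule, and neighbouring genes are named where they pass the same rule, up to 6 per list. The genes and lists were chosen with earlier results of these data known. Gate thresholds, the cycling limits and the Nppa, Bmp10, mitochondrial and non-cardiomyocyte cycling comparisons were chosen after seeing the data. Alternatives were other totals, filters, gates, folds and single replicates. Some genes of the neighbouring lists are not reported here.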

Additional observations from a re-analysis of the deposited data

How the results depend on the processing

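Of 87 recomputed counts of called genes, 74 stayed within 1.5 times the reported count and 13 did not. With all counts as the total, 2 genes were called higher in ventricular and 2 in atrial cardiomyocytes. At a fold of 2 the numbers were 2 and 0, and 0 in either direction between cycling and resting ventricular cells. Among cells at 20 to 40% mitochondrial counts, an alternative chosen after seeing the data, they were 5 and 2. In cells at or under 20%, 0 genes were called higher and 2 lower in cycling ventricular cells, and under stricter gates 1 was called higher. Without replicate 1, 3 genes were called higher in atrial cells and 7 lower in cycling cells, and without replicate 2 the numbers were 1 and 11. Shares over all features are not given for the other total, the fold of 2, stricter gates, single replicates or cycling cells at or under 20%. Those counts are therefore not set against a background. Of 384 recomputed ratios, 272 moved by less than the SD between technical replicates, and 112 moved further. Of 675 recomputed isoform shares, 479 were classed as unmoved and 196 as moved. No gene called between the chambers had a ratio that crossed 1, but several genes that were not called did, such as Pdk1 (0.693 to 1.48), Pygb (0.778 to 1.12), Aldoa (0.964 to 1.85), Hk1 (0.816 to 1.10) and Eno1 (0.854 to 1.54). No paired analysis was possible because the labels give 1 group. Genes with few counts, such as Slc16a3, Aldoc and the Pfkfb pair, are limited by depth.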

Other observations

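Epicardial cells, 50 in number and left out of the class comparison, carried lactate transporter transcripts. Slc16a1 had 246 and 288 CPM in epicardial cells, against 194 and 195 CPM in cardiomyocytes, and Slc16a3 had 52.8 and 71.0 CPM. Slc16a1 would therefore not be called higher in cardiomyocytes if epicardial cells were compared. Ldhb made up 55.6% [46.8 to 64.1] of 135 lactate dehydrogenase counts in epicardial cells, against 53.5% in cardiomyocytes, and Slc16a1 made up 81.0% [73.6 to 87.1] of 142 lactate transporter counts. The summed level of the 32 genes in epicardial cells was 2772 and 2796 CPM. Of neighbouring genes, Rpia, the ribose 5-phosphate isomerase of the pentose phosphate pathway, was called higher in cycling ventricular cells at a ratio of 1.98, while the glycogen genes Phkg1 (0.511 [0.215 to 1.04]) and Gaa (0.604 [0.447 to 0.8004]) were called lower.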
